A study of Rattus norvegicus with 20 samples.

Results

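The solute carrier genes measured here were 116 of the 4736 genes that carry a single rat symbol on the array. They are all genes whose symbol begins with Slc and a number, other than Slc1a2, Slc1a3, Slc4a4 and Slc2a1. Each is given by its probe set with the highest mean log2 intensity over all arrays, a choice that uses no difference between groups. The 116 genes had 170 probe sets, and 40 genes had more than 1. They belong to 37 carrier families, which were sorted into 14 transport roles.

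RNA of cultured rat progenitor cells and of cells derived from them was hybridised to 20 Affymetrix arrays. The progenitors came at high density (HD, 6 arrays) or, as CCg progenitors, at low density (LD, 4 arrays). LD cells were given FBS to obtain astrocytes (FBS, 6 arrays) or RA/Fsk to obtain neurons (RA/Fsk, 4 arrays). The labels do not expand CCg, and those of the HD arrays do not mention it, so in HD against LD the density and CCg cannot be told apart. FBS commonly stands for fetal bovine serum, RA for retinoic acid and Fsk for forskolin. Doses, times, strain, age and animals are not named in the labels. A culture here is the log2 mean of the arrays of a group with the same number in the labels. This gave HD cultures 1, 2 and 4, LD cultures 1, 3 and 4, and cultures 1 to 4 of each treatment. Whether these were separately grown is not stated, so a p-value here reflects the spread among these samples, which may be technical.

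The arrays had been scaled to a common level: after 2% of the values at each end were left out, array means lay between 200.3 and 200.5, and array medians between 41 and 57.5. Of the astrocyte markers, 8 were measured, 5 rose with FBS and 3 rose with RA/Fsk. Their summed intensity was 2424 to 2989 in LD, 6372 to 8878 in FBS and 8348 to 9768 in RA/Fsk cultures. Bright genes weigh most in this sum, such as Aldoc with means of 2573 in FBS and 4347 in RA/Fsk. In RA/Fsk against FBS the markers went both ways, with Aldoc at 0.76, Agt at -1.08 and Mt3 at -1.06 (adjusted p = 0.00146, 0.0196 and 0.0261). Of 8 measured neuron markers Nefm rose with FBS, by 2.26 (adjusted p = 0.00765), while none rose with RA/Fsk and Gap43 fell, so these markers do not bear out the label of the RA/Fsk cultures, and that group is named by its treatment. Gfap, Tubb3 and Sox2 were not analysed here. Of 6 progenitor markers Fabp7, Notch1 and Hes5 fell with FBS, by 1.79, 0.51 and 1.21, and the sum of the 6 was 5307 to 7521 in LD and 6697 to 7123 in FBS cultures. Of 8 oligodendrocyte lineage markers Pdgfra fell with FBS, by 2.51 (adjusted p = 3.56e-06), and Mbp rose, by 1.46 (adjusted p = 0.0373). Mbp and Cnp rose with RA/Fsk, and Pdgfra, Cnp and Sox10 were higher in RA/Fsk than in FBS. The sum of these 8 was 2120 to 2869 in LD, 1683 to 2132 in FBS and 2766 to 4774 in RA/Fsk cultures. None of the 8 microglia and 5 endothelium markers passed in any comparison, and of 7 fibroblast markers Thy1 fell with FBS. Of 5 smooth muscle and pericyte markers 1, Tagln, rose with FBS, by 3.45 ± 0.38 (SE, adjusted p = 3.41e-06), and the sum of the 5 was 183 to 220 in LD and 434 to 820 in FBS cultures. The part of any of these cell types in the carrier results was not tested. The log2 ratio of the 5′ to the 3′ GAPDH control, a measure of RNA quality, was -0.47 to -0.21 in LD, -0.16 to -0.01 in FBS, -0.47 to -0.11 in RA/Fsk and -0.20 to 0.05 in HD cultures.

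Solute carriers are membrane proteins that move ions, sugars, amino acids, vitamins, lipids and metabolites across the plasma membrane or across the membranes of mitochondria, synaptic vesicles and other organelles. Many are driven by the sodium gradient that the sodium pump maintains, and those of synaptic vesicles by a proton gradient. In brain, astrocytes use carriers to clear transmitter and potassium from the extracellular space, and neurons use them to take up, package and reuse transmitter and to set their chloride level.

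A difference is the first group's log2 value minus the second group's, on the scale log2(intensity + 4.99), which understates the change of dim genes. A gene rose or fell where limma's test gave a Benjamini-Hochberg adjusted p under 0.05 over all 8740 probe sets. Intensities are compared between groups for one gene and never between genes. In bulk RNA, fewer cells of a type and less RNA per cell cannot be told apart.

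With FBS, 14 of the 116 carriers rose (12.1%) and 5 fell (4.31%), where 13.6% of all genes rose and 12.3% fell. With RA/Fsk, 6 carriers rose over LD (5.17%) and 1 fell (0.862%), where 5.62% of all genes rose and 3.32% fell. Set against FBS, RA/Fsk had 1 carrier higher (0.862%) and 9 lower (7.76%), where the shares of all genes were 8.95% and 10.4%. In HD against LD, 1 carrier was higher (0.862%) and 0 were lower, where 0.317% and 0.148% of all genes were. In HD against LD an unadjusted p under 0.05 was found for 14 carriers. The share of all genes under it was not counted, so that number is not read as a trait of carriers. The 5 that fell with FBS became 2 without LD culture 1 or FBS culture 3 and 3 without LD culture 3 or 4 or FBS culture 1 or 4. The 6 that rose with RA/Fsk became 3 without LD culture 3. These counts come from a fit that leaves out the pairing of LD and RA/Fsk numbers described below. With the number in the labels as a block shared by all 4 groups, 6 rose and 2 fell with RA/Fsk. The calls that rest on 1 gene, Slc18a1 lower with RA/Fsk, Slc25a1 higher in RA/Fsk than in FBS and Slc27a1 higher in HD, are given in the account of that gene. The share of carriers that rose with either treatment was thus near that of all genes. The share that fell with FBS lay below that of all genes, a difference that was not tested.

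The median log2 difference of the carriers was -0.04 for FBS against LD, beside -0.07 over all genes. It was -0.05 for RA/Fsk against LD (-0.03 over all genes), 0.01 for RA/Fsk against FBS (0.05) and -0.16 for HD against LD (-0.08). The cultures of both groups did not overlap for 29 carriers with FBS (25%, and 36.7% of all genes), for 12 with RA/Fsk against LD (10.3%, and 16.9%), for 18 in RA/Fsk against FBS (15.5%, and 22.9%) and for 23 in HD against LD (19.8%, and 18.8%). Of the carriers, 43.1% lay below the median of all values in every group, which held for 37.1% of all genes. Among these 50 dim carriers 4 changed in at least 1 comparison, and among the other 66 carriers 17 did. The same shares of all dim and other genes were not counted, so these counts are not read as a trait of carriers. Of all dim genes, 10.9% were lower in all FBS than in all LD cultures and 3.92% were higher, beside 5 and 2 of the 50 dim carriers.

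**Figure D1:**
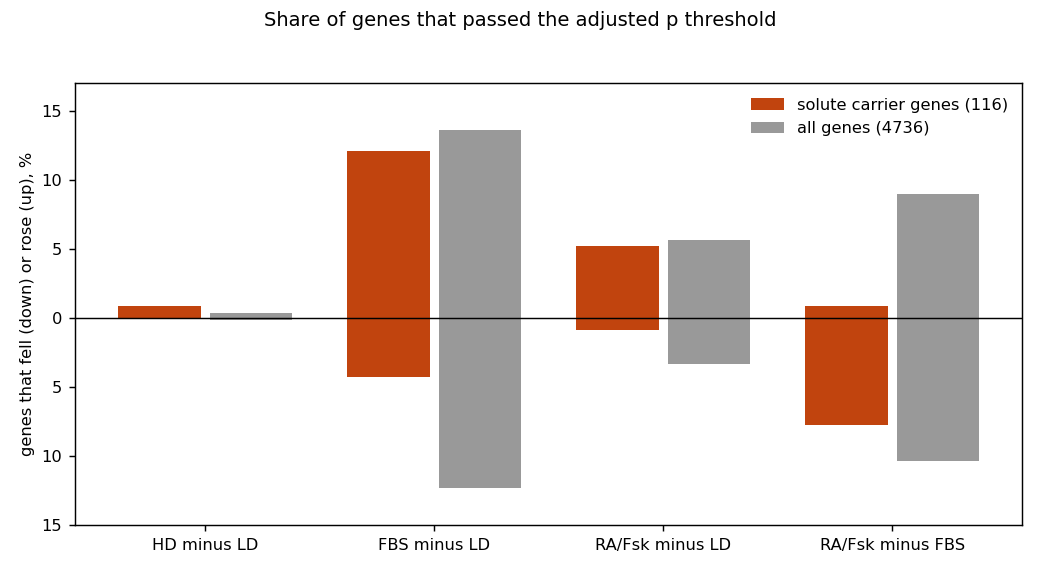
Share of the 116 solute carrier genes (orange) and of all 4736 genes (grey) that rose (upward bars) or fell (downward bars), in percent, in each of the 4 comparisons at an adjusted p under 0.05. With FBS the upward bars stand at 12.1% and 13.6% and the downward bars at 4.31% and 12.3%.

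The split of the calls depended on the scaling of the arrays. When each array was centred on its median, 11 carriers rose and 8 fell with FBS, which puts 57.9% of the calls higher in place of 73.7%. With quantile normalization 15 rose and 9 fell (62.5%). For RA/Fsk against FBS the same settings gave 4 higher and 6 lower, and 5 higher and 10 lower, in place of 1 higher and 9 lower. Centring moved the median of all probe sets from -0.09 to -0.18 for FBS against LD, from 0.06 to 0.16 for RA/Fsk against FBS and from -0.08 to 0.02 for HD against LD. With the GAPDH ratio as a covariate, 15 carriers rose and 9 fell with FBS. The 3 comparisons of treated cells share the LD or the FBS cultures, so their values are given side by side.

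The cation and chloride cotransporters of family 12 move potassium or sodium together with chloride and so set cell volume and the chloride level of the cell. With FBS, 4 of the 6 measured members rose, where 13.6% of all genes did. The median difference was 1.05 over the family and -0.07 over all genes. Of these 4, Slc12a5 was dim and lost its call under some alternatives, as given below. In RA/Fsk 1 of the 6 rose over LD (5.62% of all genes), and 3 of the 6 were lower than in FBS (10.4% of all genes). In HD against LD none of the 6 passed.

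Slc12a4, a potassium-chloride cotransporter found in many cell types, had the highest rise with FBS among the 116 carriers. Its intensity was 299, 187 and 286 in the LD cultures and 266, 295 and 241 in the HD cultures. It was 1167, 1837, 1550 and 1229 in the FBS cultures and 471, 616, 495 and 492 in the RA/Fsk cultures. All FBS cultures stood above all RA/Fsk cultures, and these above all LD and HD cultures. The log2 difference was 2.47 ± 0.18 for FBS against LD (SE, adjusted p = 5.8e-08), a 5.54-fold higher level, and 1.02 ± 0.18 for RA/Fsk against LD (adjusted p = 0.00218). RA/Fsk was lower than FBS by 1.45 (adjusted p = 1.18e-05). A second probe set of the gene rose with FBS by 2.30 ± 0.19 (adjusted p = 1.38e-07) and with RA/Fsk by 1.07 ± 0.19 (adjusted p = 0.00157).

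Slc12a7, another potassium-chloride cotransporter, stood above all other cultures in FBS. The LD cultures gave 99.6, 62.1 and 89.4 and the HD cultures 82.7, 95.8 and 98.5. The FBS cultures gave 276, 235, 215 and 220 and the RA/Fsk cultures 122, 82.8, 57.4 and 65.3. The lowest FBS culture stood above the highest culture of every other group. FBS was higher than LD by 1.46 ± 0.24 (adjusted p = 0.000156) and than RA/Fsk, which differed from FBS by -1.52 ± 0.22 (adjusted p = 8.81e-05). RA/Fsk against LD gave -0.06 (adjusted p = 0.93).

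The promoters of these cotransporters are shown because both genes rose with FBS by more than 2-fold and their 250 bases before the gene start are rich in GC boxes, sites that factors of the Sp family are known to bind. The GC box was chosen after the values were seen. They are RefSeq sequences of assembly GRCr8, written 5′ to 3′ on the strand of the gene, at chr19:50770123-50770372 (minus strand, Slc12a4) and chr1:31354626-31354875 (minus strand, Slc12a7). Capitals mark each match to GGGCGG on either strand, and neighbouring matches may overlap.
Slc12a4: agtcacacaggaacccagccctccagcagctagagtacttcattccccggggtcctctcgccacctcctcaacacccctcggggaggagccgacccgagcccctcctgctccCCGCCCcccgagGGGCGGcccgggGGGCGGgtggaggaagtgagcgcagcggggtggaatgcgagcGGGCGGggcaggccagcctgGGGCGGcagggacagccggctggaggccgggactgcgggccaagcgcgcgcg
Slc12a7: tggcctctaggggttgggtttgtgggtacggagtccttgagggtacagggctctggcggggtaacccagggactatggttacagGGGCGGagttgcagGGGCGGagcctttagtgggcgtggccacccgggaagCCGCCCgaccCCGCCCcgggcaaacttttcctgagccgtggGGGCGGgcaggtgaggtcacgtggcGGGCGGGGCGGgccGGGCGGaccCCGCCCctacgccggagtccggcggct

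The Slc12a4 promoter holds 5 GC boxes and that of Slc12a7 holds 9. A GC box lies in 49.5% of the 97 carrier promoters that could be matched and in 32.4% of all 27457 rat promoters of the same length. The median GC content was 59.2% in the carrier promoters and 52% in all promoters. Of the carriers that rose with FBS, 13 had a promoter and 9 of these held a GC box (69.2%). The promoters of Slc5a3, Slc27a1, Slc41a2 and Slc41a3, which also rose with FBS, held none. A GC box lay in 2 of 4 promoters of carriers that fell with FBS (50%). It lay in 4 of 6 promoters of carriers that rose with RA/Fsk (66.7%). The cAMP response element TGACGTCA, searched on both strands, lies in 1 carrier promoter (1.03%, and 1.70% of all promoters), that of Slc18a2, and in 0 of the 6 carriers that rose with RA/Fsk. These matches describe the letters of the promoters and no test was made of them.

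Slc12a2 brings sodium, potassium and chloride into the cell and so raises its chloride. It gave 47.3, 74.7 and 84.9 in LD, 82.5, 85.0 and 69.2 in HD, and 195, 178, 172 and 143 in FBS cultures. The RA/Fsk cultures ranged from 57.8 to 152 and overlapped with both LD and FBS. FBS was higher than LD by 1.29 ± 0.29 (adjusted p = 0.00293), while RA/Fsk differed from LD by 0.61 (adjusted p = 0.239) and from FBS by -0.67 (adjusted p = 0.103). Of its 3 other probe sets, 2 rose with FBS, by 1.21 and 2.17, and both were lower in RA/Fsk than in FBS, by differences of -1.08 and -1.35 (adjusted p = 0.0157 and 0.031).

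Slc12a5, the cotransporter that lowers chloride in mature neurons, was dim throughout: 5.13, 3.70 and 4.70 in LD, 10.1, 17.1, 15.7 and 6.0 in FBS, and 2.6, 5.5, 5.6 and 6.1 in RA/Fsk cultures. All FBS cultures were above all LD cultures, and RA/Fsk culture 4 overlapped with FBS. It rose with FBS by 0.81 ± 0.24 (adjusted p = 0.0191) and was lower in RA/Fsk than in FBS by 0.76 (adjusted p = 0.0247). Without LD culture 3 the rise was 0.75 (adjusted p = 0.069), without FBS culture 2 it was 0.67 (adjusted p = 0.0608) and without FBS culture 3 it was 0.70 (adjusted p = 0.059). The difference from RA/Fsk was -0.62 (adjusted p = 0.0866), -0.65 (adjusted p = 0.0812) and -0.63 (adjusted p = 0.0801) without FBS culture 2, FBS culture 3 and RA/Fsk culture 1, and median centring ended both calls (adjusted p = 0.0636 and 0.0862). The remaining members, Slc12a1 and Slc12a3, are known from the kidney and passed in no comparison, with FBS against LD at -0.13 and 0.37.

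Carriers of phosphate, magnesium, carnitine and inositol held further members that were high in FBS and not in RA/Fsk. Slc20a2, a sodium-phosphate cotransporter, gave 91.9, 49.9 and 95.6 in LD cultures and 78.7, 70.3 and 80.1 in HD cultures. It gave 336, 282, 249 and 381 in FBS and 124, 93.1, 99.3 and 117 in RA/Fsk cultures. The FBS cultures were separate from all others, and the rise over LD was 1.95 ± 0.22 (adjusted p = 4.88e-06), or 3.86-fold. RA/Fsk differed from FBS by -1.48 ± 0.20 (adjusted p = 6.62e-05) and from LD by 0.47 (adjusted p = 0.235).

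Slc41a3, a magnesium carrier, gave 120, 119 and 77.1 in LD, 111, 86.8 and 74.6 in HD, and 143, 123, 102 and 109 in RA/Fsk cultures. The FBS cultures gave 435, 404, 406 and 398, with less spread than any other group and no overlap. FBS was higher than LD by 1.94 ± 0.19 (adjusted p = 1.08e-06), and RA/Fsk differed from FBS by -1.75 ± 0.18 (adjusted p = 2.18e-06), the lowest difference of the 116 carriers in that comparison. The related Slc41a2 gave 57.4, 99.9 and 86.0 in LD and 240, 153, 176 and 170 in FBS cultures. It rose by 1.15 ± 0.27 (adjusted p = 0.00424), while its RA/Fsk cultures, at 85.4, 110, 213 and 115, overlapped with both. The 5 other metal carriers measured, for iron and zinc, passed in no comparison on the probe sets used.

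**Figure D2:**
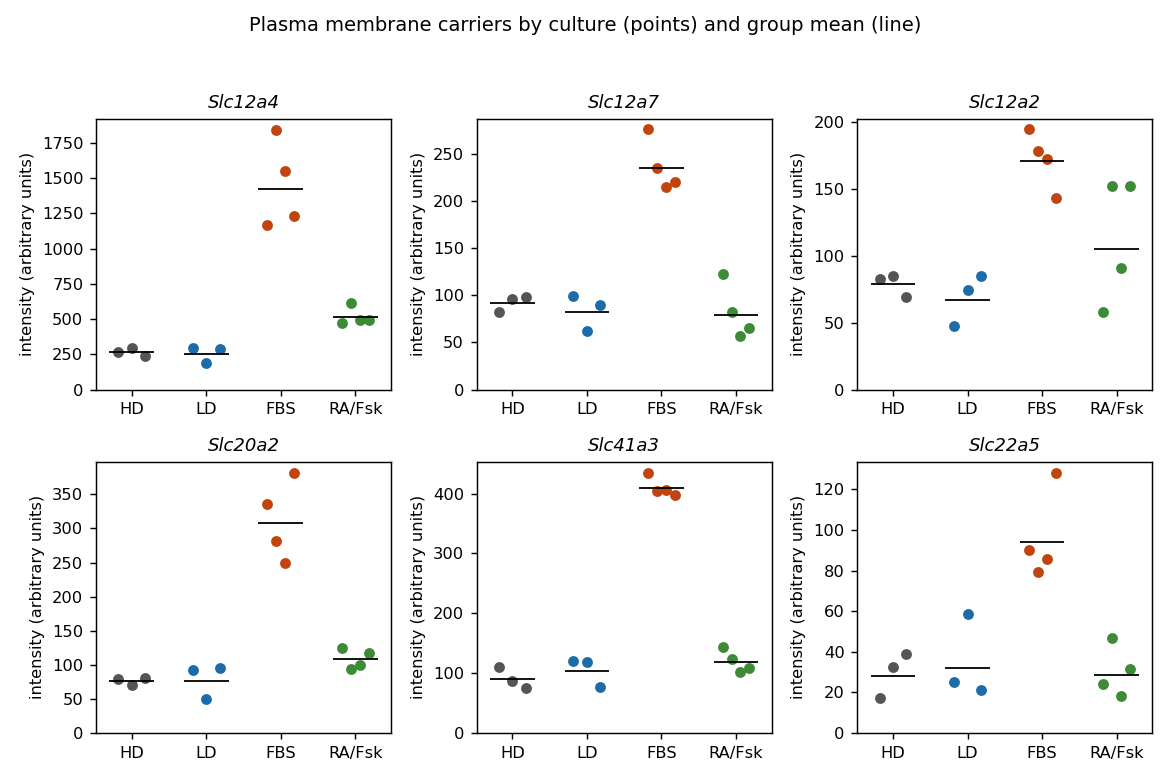
Intensity (linear axis from 0, arbitrary units) of 6 solute carriers in each culture (points), for HD, LD, FBS and RA/Fsk. The line is the group mean taken on the log2 scale. The 4 FBS cultures stand above every other culture for Slc12a4, Slc12a7, Slc20a2, Slc41a3 and Slc22a5, and for Slc12a2 the RA/Fsk cultures reach 152, above the lowest FBS culture at 143.

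Slc22a5, which takes up carnitine for the oxidation of fatty acids, gave 24.9, 58.8 and 21.1 in LD and 90.2, 79.1, 85.5 and 128 in FBS cultures. In RA/Fsk it gave 23.9, 46.6, 18 and 31.4, which overlapped with LD and lay below all FBS cultures. FBS was higher than LD by 1.43 ± 0.37 (adjusted p = 0.0075), and RA/Fsk differed from FBS by -1.57 ± 0.34 (adjusted p = 0.00328). The 9 other carriers of organic ions and bile acids did not pass in any comparison, and 7 of the 10 lay below the median of all values in every group.

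Slc5a3, a sodium-coupled carrier of the osmolyte myo-inositol, gave 51.3, 106 and 84.3 in LD and 171, 180, 150 and 142 in FBS cultures. The HD cultures gave 86.7, 147 and 89.3, so HD culture 2 stood above the lowest FBS culture. Its RA/Fsk cultures gave 60.5, 67.9, 98.5 and 86.4, like LD. The rise with FBS was 1.0 ± 0.26 (adjusted p = 0.00713), and RA/Fsk differed from FBS by -1.01 ± 0.24 (adjusted p = 0.00588). Without LD culture 1, the lowest of its group, the rise was 0.73 (adjusted p = 0.0525). Slc5a2, the sodium-glucose cotransporter of the kidney, was dim in every group and fell with FBS by 0.70 (adjusted p = 0.0423), from 16.7, 13.9 and 14.3 to 6.77, 7.30, 8.62 and 6.50. The HD cultures of Slc5a2, at 9.77, 9.37 and 7.72, were also below all LD cultures, by -0.52 (adjusted p = 0.393). Leaving out any one HD, LD or FBS culture ended the call of Slc5a2 with FBS, with values from -0.75 to -0.64 and adjusted p from 0.0519 to 0.115. The other 9 sugar carriers and relatives, which include the facilitative glucose carriers Slc2a2 to Slc2a5, passed in no comparison.

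The mitochondrial carriers of family 25 exchange metabolites, nucleotides and phosphate between mitochondria and cytosol. Of the 12 measured, none was below the median of all values in every group. With FBS 3 rose and 1 fell, where 13.6% and 12.3% of all genes did. With RA/Fsk 3 rose over LD, where 5.62% of all genes did. In RA/Fsk against FBS 1 was higher and 1 lower, where 8.95% and 10.4% of all genes were. The median of the family was 0.22, 0.18 and 0.03 in these 3 comparisons, beside -0.07, -0.03 and 0.05 over all genes. In HD against LD none passed.

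Slc25a10, which exchanges dicarboxylates such as malate and succinate for phosphate, rose with both treatments. It gave 169, 120 and 179 in LD and 190, 263 and 159 in HD cultures. It gave 436, 543, 415 and 469 in FBS and 368, 504, 357 and 387 in RA/Fsk cultures. Both treated groups lay above all progenitor cultures and overlapped with each other. The difference from LD was 1.56 ± 0.19 for FBS (adjusted p = 1.03e-05) and 1.35 ± 0.19 for RA/Fsk (adjusted p = 0.000237), with -0.21 between the treatments (adjusted p = 0.501). Its 2 other probe sets rose in both comparisons, by 1.70 and 1.94 with FBS and by 1.5 and 1.82 with RA/Fsk.

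Slc25a1, the citrate carrier that brings acetyl units out of mitochondria for lipid synthesis, was higher with RA/Fsk and not with FBS. It gave 682, 592 and 591 in LD and 501, 634, 579 and 609 in FBS cultures, which overlapped. It gave 850, 841, 1309 and 789 in RA/Fsk cultures, all above these, and 849, 927 and 812 in HD cultures. RA/Fsk was higher than LD by 0.58 ± 0.16 (adjusted p = 0.033) and than FBS by 0.68 ± 0.15 (adjusted p = 0.00324). Over LD the difference was 0.54 without LD culture 3 (adjusted p = 0.112) and 0.54 without LD culture 4 (adjusted p = 0.104), and it did not pass with median centring (0.59, adjusted p = 0.0983) or quantile normalization (0.52, adjusted p = 0.0519). HD differed from LD by 0.47 (adjusted p = 0.225), although all HD cultures stood above all LD cultures.

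Slc25a23, a calcium-regulated carrier of ATP-magnesium, gave 30.6, 30.9 and 34.6 in LD and 60.5, 71.1, 62.1 and 50.9 in RA/Fsk cultures, with no overlap. The rise with RA/Fsk was 0.83 ± 0.23 (adjusted p = 0.0349), and with the number in the labels as a replicate block it was 0.84 (adjusted p = 0.0544). It was lost without LD culture 1, 3 or 4 (0.80, 0.81 and 0.88, adjusted p = 0.0858, 0.099 and 0.0641) and without RA/Fsk culture 2 or 3 (0.76 and 0.82, adjusted p = 0.0923 and 0.0564). Slc25a17, a carrier of peroxisomes for coenzyme A and nucleotides, gave 502, 607 and 490 in LD, 753, 764, 824 and 665 in FBS and 778, 665, 937 and 647 in RA/Fsk cultures. Both treated groups lay above LD. The difference from LD was 0.49 for both, with adjusted p = 0.0236 for FBS and 0.0582 for RA/Fsk, and the replicate block brought RA/Fsk to 0.51 ± 0.14 (adjusted p = 0.0359). The call with FBS was lost without LD culture 1 or 4 (0.45 and 0.44, adjusted p = 0.0799 and 0.0921), without FBS culture 2 or 3 (0.49 and 0.45, adjusted p = 0.0526 and 0.0692) and with median centring (0.40, adjusted p = 0.178).

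Slc25a11, which exchanges oxoglutarate for malate in the shuttle of reducing units, gave 395, 415 and 362 in LD and 568, 550, 553 and 570 in FBS cultures. In RA/Fsk it gave 483, 352, 413 and 396, around the LD level and below all FBS cultures. It rose with FBS by 0.52 ± 0.14 (adjusted p = 0.00966) and was lower in RA/Fsk than in FBS by 0.45 (adjusted p = 0.0195). Median centring left 0.43 (adjusted p = 0.0652) and -0.35 (adjusted p = 0.127), and the second call was lost without FBS culture 4 (-0.44, adjusted p = 0.0509) or RA/Fsk culture 2 (-0.38, adjusted p = 0.0656). The GAPDH covariate left 0.49 (adjusted p = 0.0714) and -0.43 (adjusted p = 0.102). A second probe set rose with FBS by 0.52 (adjusted p = 0.00986) but differed between RA/Fsk and FBS by -0.17 (adjusted p = 0.456), and the mean of both gave -0.31 (adjusted p = 0.0782) in that comparison.

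Slc25a5, an exchanger of ADP for ATP, fell with FBS. It gave 2208, 1922 and 2023 in LD, 1287, 1305, 1373 and 1182 in FBS and 1568, 1584, 1738 and 1515 in RA/Fsk cultures, so that these 3 groups did not overlap. The HD cultures, at 1933, 2172 and 1275, spread over the ranges of both LD and FBS. FBS differed from LD by -0.67 ± 0.15 (adjusted p = 0.0027). RA/Fsk differed from LD by -0.36 (adjusted p = 0.176) and from FBS by 0.31 (adjusted p = 0.144). The second exchanger of this kind, Slc25a4, had group means of 3298 to 3550 and differences of -0.05 to 0.05 from LD. The mitochondrial phosphate carrier Slc25a3 had group means of 3132 to 3757 and passed in no comparison.

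Slc27a1, which brings long-chain fatty acids into the cell, was lower in LD than in all other groups. The LD cultures gave 120, 164 and 146. The HD cultures gave 208, 314 and 294, the FBS cultures 262, 346, 286 and 302, and the RA/Fsk cultures 280, 386, 346 and 313. Every culture of those 3 groups was above every LD culture, and they overlapped with one another. The difference from LD was 0.89 ± 0.19 for HD (adjusted p = 0.0311), 1.04 ± 0.17 for FBS (adjusted p = 0.000231) and 1.18 ± 0.17 for RA/Fsk (adjusted p = 0.000347), all 3 taken against the same LD cultures. It was the single carrier that passed in HD against LD. The HD value was 0.78, 0.82, 0.77, 0.99 and 0.91 without HD culture 2, HD culture 4, LD culture 1, LD culture 3 and LD culture 4, with adjusted p of 0.124, 0.158, 0.123, 0.0529 and 0.0572. Median centring gave 0.99 (adjusted p = 0.0656) and quantile normalization 0.88 (adjusted p = 0.0503).

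**Figure D3:**
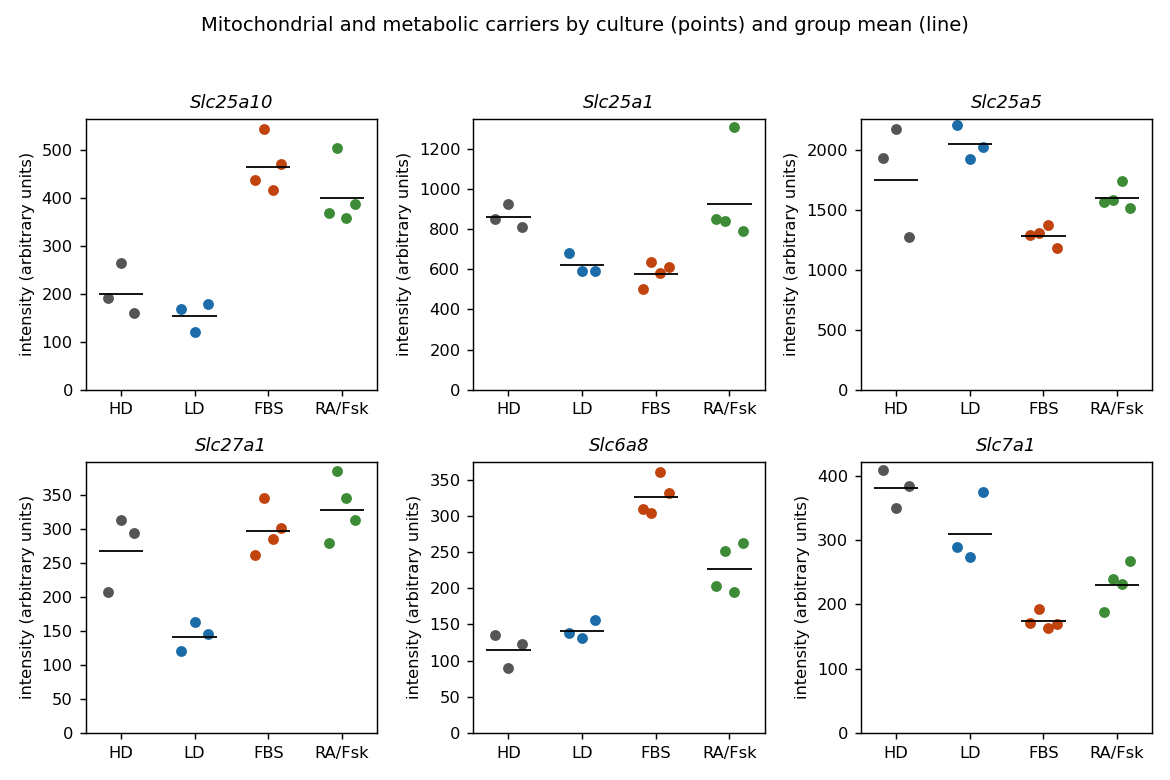
Intensity (linear axis from 0, arbitrary units) of 6 carriers of mitochondrial and other metabolites in each culture (points) with the group mean taken on the log2 scale (line), for HD, LD, FBS and RA/Fsk. Slc25a10 is high in both treated groups, Slc25a1 reaches 1309 in RA/Fsk culture 3, Slc25a5 and Slc7a1 have their lowest group mean in FBS, and Slc27a1 has its lowest in LD.

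Families 1, 6, 17, 18 and 32 carry glutamate, the other transmitters, creatine and several amino acids. They held 22 measured members, of which 12 lay below the median of all values in every group. Of these 22, 1 rose and 1 fell with FBS and the same 2 genes did so with RA/Fsk, 1 was lower in RA/Fsk than in FBS, and none passed in HD against LD. Against LD their median was -0.12 with FBS and -0.06 with RA/Fsk, beside -0.07 and -0.03 over all genes. Of all genes, 13.6% rose and 12.3% fell with FBS, and 5.62% rose and 3.32% fell with RA/Fsk. In RA/Fsk against FBS 10.4% of all genes were lower, and in HD against LD 0.317% were higher and 0.148% lower.

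Slc6a8 takes up creatine, the store of phosphate-bound energy, and is the member that rose. It gave 138, 131 and 156 in LD and 135, 90.0 and 123 in HD cultures. It gave 309, 304, 361 and 331 in FBS and 203, 252, 195 and 262 in RA/Fsk cultures, 3 levels without overlap from LD to RA/Fsk to FBS. FBS was higher than LD by 1.18 ± 0.17 (adjusted p = 4.75e-05) and RA/Fsk by 0.66 ± 0.17 (adjusted p = 0.0203), and RA/Fsk was lower than FBS by 0.51 (adjusted p = 0.0279). The rise with RA/Fsk was lost without LD culture 1 or 3 (0.64 and 0.61, adjusted p = 0.059 and 0.086) and without RA/Fsk culture 2 or 4 (0.61 and 0.59, adjusted p = 0.0593 and 0.0599). The difference between treatments was lost without FBS culture 3 or 4 (-0.47 and -0.51, adjusted p = 0.0902 and 0.068), without RA/Fsk culture 1 or 3 (-0.46 and -0.45, adjusted p = 0.0669 and 0.0709), with median centring (-0.41, adjusted p = 0.11) and with the GAPDH covariate (-0.54, adjusted p = 0.0885).

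Slc18a1, which loads monoamines into vesicles, was dim and fell with both treatments. It gave 20.9, 15.3 and 24.7 in LD, 9.15, 15.2, 5.3 and 6.2 in FBS and 10.2, 5.5, 6.1 and 5.4 in RA/Fsk cultures. The HD cultures gave 11.5, 7.41 and 15.6, a difference from LD of -0.63 (adjusted p = 0.38). LD culture 3 and FBS culture 2 almost met, at 15.3 and 15.2. The difference from LD was -0.89 ± 0.29 for FBS (adjusted p = 0.0298) and -1.10 ± 0.29 for RA/Fsk (adjusted p = 0.0236). The call with FBS was lost without LD culture 1 or 4 or FBS culture 1, 3 or 4, where it lay between -0.92 and -0.76 with adjusted p from 0.0534 to 0.108. The call with RA/Fsk was lost without LD culture 1 or 4 or RA/Fsk culture 2 or 4, where it lay between -1.08 and -0.98 with adjusted p from 0.0567 to 0.0912.

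The members that define transmitter types in neurons did not pass in any comparison. Slc17a7, the vesicular glutamate carrier, gave 5.40 to 9.40 in LD and 6.6 to 10 in RA/Fsk cultures, and Slc32a1, which loads GABA and glycine into vesicles, gave 15.2 to 42.6 and 23 to 55.7. Slc18a3, the vesicular acetylcholine carrier, gave 81.9 to 133 in LD and 94.8 to 125 in RA/Fsk cultures. Its RA/Fsk cultures were all above the FBS cultures at 73.0 to 89.0, by 0.42 (adjusted p = 0.141). This passed with median centring (0.52, adjusted p = 0.0468) and quantile normalization (0.54, adjusted p = 0.0373). On its other probe set the difference was 0.08 (adjusted p = 0.866), and the cultures of these groups overlapped. Slc18a2, the second vesicular monoamine carrier, ranged from 3.90 to 34.6 in LD and from 3.20 to 28.3 in RA/Fsk cultures.

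The plasma membrane carriers of dopamine (Slc6a3), noradrenaline (Slc6a2) and serotonin (Slc6a4) differed from LD by 0.51, -0.17 and 0.01 with RA/Fsk and by 0.18, -0.26 and 0.25 with FBS. The GABA carriers Slc6a11 and Slc6a13 and the glycine carriers Slc6a9 and Slc6a5 differed by -0.67 to -0.01 with RA/Fsk and by -0.22 to 0.07 with FBS. The taurine carrier Slc6a6 differed by 0.13 with FBS and -0.11 with RA/Fsk. Slc1a1, the glutamate carrier of neurons and epithelia, gave 357 to 498 in LD, 387 to 410 in FBS and 449 to 566 in RA/Fsk cultures. All its RA/Fsk cultures were above all FBS cultures, by 0.30 (adjusted p = 0.104). Its other probe sets did not show this, with differences of 0.01 and -0.42 (adjusted p = 0.977 and 0.172) and overlapping cultures. Slc1a6, a glutamate carrier of Purkinje cells, was dim, at 7.8 to 14 in LD cultures.

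Slc6a15, a carrier of branched-chain amino acids and proline, gave 108, 73.5 and 144 in LD and 63.5, 88.1, 34.1 and 76.8 in RA/Fsk cultures. The groups overlapped, and the difference was -0.71 (adjusted p = 0.177). With the replicate block it was -0.83 ± 0.21 (adjusted p = 0.0221), which brought the carriers that fell with RA/Fsk from 1 to 2. That block shares the effect of each number among all 4 groups, so it is not a fit of the LD and RA/Fsk pairing alone. The amino acid carriers Slc6a7, Slc6a17, Slc6a18 and Slc6a20a and the phosphate carrier Slc17a1 of the same families were dim in every group and passed in no comparison.

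The 4 genes left out by the rule were Slc1a3, Slc1a2, Slc2a1 and Slc4a4. Slc1a3, the glutamate carrier of radial glia and astrocytes, gave 62.5, 109 and 98.4 in LD and 342, 369, 359 and 361 in FBS cultures, a rise of 1.97 ± 0.31 (adjusted p = 0.000117), and RA/Fsk was lower than FBS by 1.76 (adjusted p = 0.000268). The others passed in no comparison, with differences from LD of -0.36 to 0.61.

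**Figure D4:**
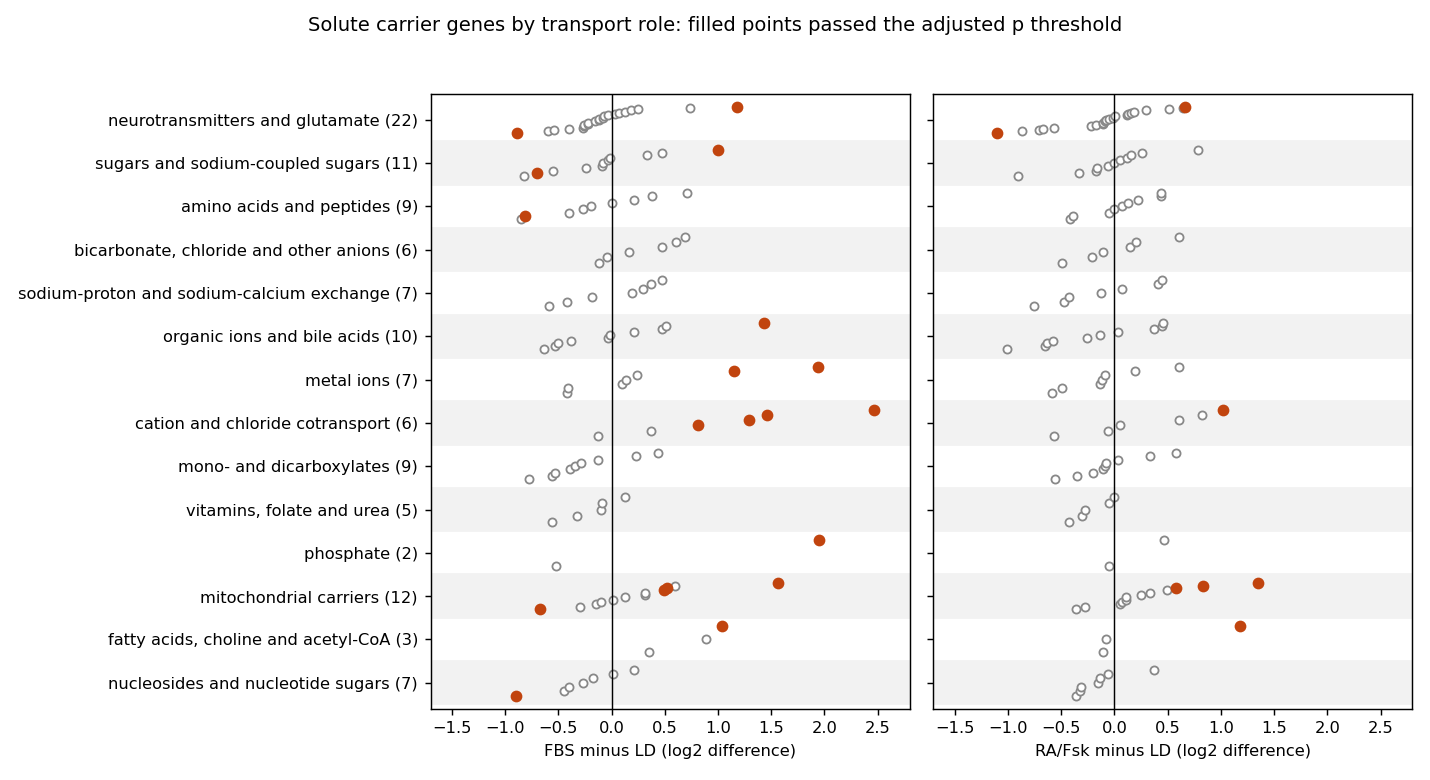
Log2 difference from LD of each of the 116 solute carrier genes with FBS (left) and with RA/Fsk (right), in rows by transport role with the number of genes in brackets; filled points passed the adjusted p threshold and open points did not. Both panels use the same LD cultures. In the row of cation and chloride cotransport 4 of 6 points are filled with FBS and 1 of 6 with RA/Fsk, and in 4 rows no point is filled in either panel.

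Among carriers of amino acids and peptides, 1 of 9 fell with FBS, where 12.3% of all genes did, and none passed in the other comparisons. Slc7a1, the main carrier of cationic amino acids in many cells, gave 289, 273 and 374 in LD and 409, 350 and 384 in HD cultures. It gave 171, 193, 163 and 170 in FBS and 188, 240, 232 and 267 in RA/Fsk cultures. Both treated groups lay below all progenitor cultures. The difference from LD was -0.81 ± 0.15 for FBS (adjusted p = 0.000721) and -0.42 for RA/Fsk (adjusted p = 0.115). Of its 2 other probe sets, 1 fell with FBS by 2.02 (adjusted p = 0.00698) and the other differed by 0.06.

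Its promoter is shown because it holds the motif TGATGNAA, by which cells short of amino acids are known to raise transcription. The RefSeq sequence lies at chr12:11664238-11664487 of GRCr8 (plus strand), and capitals mark this match alone, which starts 30 bases before the gene start.
Slc7a1: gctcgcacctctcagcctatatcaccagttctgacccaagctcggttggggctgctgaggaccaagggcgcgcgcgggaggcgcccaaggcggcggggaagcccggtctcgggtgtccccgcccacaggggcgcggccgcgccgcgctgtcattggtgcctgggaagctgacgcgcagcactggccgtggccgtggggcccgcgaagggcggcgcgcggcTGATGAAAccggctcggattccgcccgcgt

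This motif, searched on both strands, lies in 2 of the 97 carrier promoters (2.06%) and in 3.27% of all promoters. The second is that of Slc23a3, which passed in no comparison.

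Slc7a3, a related carrier of cationic amino acids, was dim and came close to the threshold without passing. It gave 32.7, 27.3 and 26.8 in LD, 7.97, 5.35 and 10.6 in HD and 13.9, 24.4, 10.4 and 9.50 in FBS cultures. All HD and FBS cultures were below all LD cultures, and the difference was -1.40 for HD (adjusted p = 0.0617) and -0.85 for FBS (adjusted p = 0.0587). Slc7a5, a carrier of large neutral amino acids, and its partner Slc3a2 passed in no comparison. HD cultures 1, 2 and 4 gave 1311, 2171 and 3607 for Slc7a5 and 1791, 2492 and 4573 for Slc3a2. HD culture 4 was the highest and HD culture 1 the lowest of its group for both genes.

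Slc28a2, which takes up purine nucleosides with sodium, was dim and fell with FBS. It gave 43, 34.5 and 30.3 in LD and 19, 22.8, 11.5 and 15.6 in FBS cultures, with no overlap, and 26.8, 27.2, 21.3 and 36.5 in RA/Fsk cultures. The difference was -0.90 ± 0.30 (adjusted p = 0.0384). It was lost without LD culture 1, 3 or 4 (-0.78, -0.92 and -1.0, adjusted p = 0.129, 0.0777 and 0.0505) and without FBS culture 1, 3 or 4 (-0.94, -0.76 and -0.87, adjusted p = 0.06, 0.115 and 0.078). The other 6 carriers of nucleosides and nucleotide sugars passed in no comparison.

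In 4 roles no gene passed in any comparison on the probe set used for it. The 9 carriers of mono- and dicarboxylates differed from LD by -0.78 to 0.44 with FBS and by -0.56 to 0.58 with RA/Fsk. Among them the lactate carrier Slc16a1 gave 343, 288 and 361 in LD and 375, 477, 402 and 566 in FBS cultures, which did not overlap, with a difference of 0.44 (adjusted p = 0.272). In RA/Fsk it gave 230, 262, 665 and 321, of which culture 3 stood apart. Without RA/Fsk culture 3, RA/Fsk differed from FBS by -0.73 (adjusted p = 0.00561) in place of -0.41 (adjusted p = 0.328).

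The 6 carriers of bicarbonate, chloride and other anions differed from LD by -0.12 to 0.69 with FBS on the probe sets used. Among them Slc4a2 differed by 0.61 (adjusted p = 0.17). Its other, dimmer probe set rose with FBS by 4.15 ± 0.60 (adjusted p = 5.79e-05) and was lower in RA/Fsk than in FBS (adjusted p = 0.0015). Both probe sets are described among the other observations. The anion exchanger Slc4a3 gave group means of 115 in LD, 161 in FBS and 106 in RA/Fsk, and RA/Fsk differed from FBS by -0.57 (adjusted p = 0.0715). Slc4a7, a sodium-bicarbonate cotransporter, differed from LD by 0.69 with FBS (adjusted p = 0.113) and 0.61 with RA/Fsk (adjusted p = 0.263). The 7 exchangers of sodium for protons or calcium and the 5 carriers of vitamins, folate and urea had medians of 0.19 and -0.10 with FBS.

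HD and LD differed in few carriers beyond the spread. Of the 23 carriers whose HD and LD cultures did not overlap, 17 were lower in HD and 6 higher, and 10 of the 17 were dim. Among all genes 11.4% were lower in all HD cultures and 7.31% higher, and among all dim genes 12% and 3.13%, beside 10 and 1 of the 50 dim carriers. The kidney carriers Slc22a6, Slc22a13 and Slc13a2 were among those lower, with differences of -1.33, -1.29 and -1.27 and adjusted p of 0.287, 0.163 and 0.211.

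Genes that drive or accompany the carriers were counted in the same comparisons. Of all genes, 13.6% rose with FBS, 5.62% rose with RA/Fsk over LD and 10.4% were lower in RA/Fsk than in FBS. The sodium pump supplies the gradient that many carriers use, and 4 of its 7 measured subunits and regulators rose with FBS: Atp1b1, Atp1b2, Atp1b3 and Fxyd1. Each of these 4 was also lower in RA/Fsk than in FBS, and none rose with RA/Fsk over LD. Atp1b1 gave 417, 415 and 382 in LD, 929, 1112, 1161 and 724 in FBS and 417, 455, 353 and 442 in RA/Fsk cultures. FBS was higher by 1.25 ± 0.16 (adjusted p = 1.6e-05), with no overlap. The pump's catalytic subunit was represented by Atp1a4 alone, which was dim.

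Of 11 measured partners and regulators of carriers, 4 rose with FBS, 2 rose with RA/Fsk and 3 were lower in RA/Fsk than in FBS. Emb, which escorts lactate carriers to the membrane, gave 220, 133 and 159 in LD and 206, 179, 127 and 180 in RA/Fsk cultures. It gave 1529, 1623, 1483 and 1391 in FBS cultures, a rise of 3.13 ± 0.18 (adjusted p = 2.34e-09). Bsg, a second escort of lactate carriers, rose by 0.65 with FBS (adjusted p = 0.000754) and by 0.55 with RA/Fsk (adjusted p = 0.0102). Sgk1, a kinase that raises the activity of many carriers, rose by 1.24 (adjusted p = 3.93e-05) and 0.87 (adjusted p = 0.00436). Oxsr1, a dim gene for a kinase that acts on the cotransporters of family 12, was lower in RA/Fsk than in FBS by 1.70 (adjusted p = 0.00591), and Stk39, which acts with it, passed in no comparison.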

How the data were processed

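The deposited table holds linear intensities of 8799 probe sets on 20 arrays, scaled by the authors to a common level as judged from their trimmed means; background correction, summarisation and detection: not given in the sources used here. Control probe sets (59) were left out and 8740 tested, of which 7006 carry 1 symbol, 308 several and 1426 none; 191 identifiers with # have no symbol in the annotation used, and 2 carrier probe sets with several symbols were left out. All 116 symbols matched RefSeq (GRCr8) and 0 changed.

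Intensities were transformed as log2(intensity + 4.99), which is 10% of the median positive value of 49.9 (6 zeros). All 4 groups were fitted with limma 3.58.1 in R 4.3.3 (lmFit, eBayes with an intensity trend, 10 residual degrees of freedom, prior 6.13); the code was tested on simulated data. The median SE of a carrier's difference was 0.26 to 0.30, and the number of arrays limits the precision. Every carrier that passed was named, as were all members of families 1, 6, 12, 17, 18 and 32 and up to 4 genes of each partner list; others were named after their values were seen. Members, lists and roles were chosen with earlier results of these data known.

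Same-numbered LD and RA/Fsk cultures deviated together (r over all probe sets 0.108 to 0.327 in 3 pairs). The numbers were so taken to pair these groups, as the data and not the labels show. The main fit leaves this pairing out, and no paired fit of LD and RA/Fsk alone was run. A replicate block was fitted as an alternative, with the effect of each number shared by all 4 groups. The offset, scaling, dim filter, variance prior, array averaging, FBS arrays 3 and 3r, GAPDH ratio, probe set choice and each culture left out were the others.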

Additional observations from a re-analysis of the deposited data

Results flagged for a closer look

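Among the 43 named genes, 86 groups of 4 cultures were examined for a culture far from the others, and 2 were found, where chance gives about 1 group in 20. Slc12a5 was low in RA/Fsk culture 1, at 2.6, while the other RA/Fsk cultures gave 5.5 to 6.1, all of them dim. Slc25a1 was high in RA/Fsk culture 3, at 1309, while the other RA/Fsk cultures gave 789 to 850. Without that culture the rises of Slc25a1 over LD and over FBS kept their call.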

How the results depend on the processing

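Of 37 differences of named carriers that passed, 22 kept their call under every alternative run for them (26, or 25 where the gene fell among the dimmer 50% of probe sets), 15 lost it under at least 1 and 0 changed direction. The count that rose with FBS (14) was 12 to 15 with each culture left out, and the count lower in RA/Fsk than in FBS (9) was 7 to 11. The 5 that fell with FBS became 8 with median centring, 9 with quantile normalization, 3 without the dimmer 50% of probe sets, 10 with each array as a sample, 3 with FBS array 3r alone, 9 with the GAPDH covariate and 2 to 6 with a culture left out (2 without LD culture 1 or FBS culture 3, 3 without LD culture 3 or 4 or FBS culture 1 or 4). For RA/Fsk against LD, the 6 higher became 3 to 8 with a culture left out (3 without LD culture 3), and the 1 lower became 0 without the dimmer probe sets, 2 with the replicate block and 0 to 1 with a culture left out (0 without LD culture 1 or 4 or RA/Fsk culture 2 or 4). For RA/Fsk against FBS, the 1 higher became 4 with median centring, 5 with quantile normalization, 2 without the dimmer probe sets, without the intensity trend, with each array as a sample, with FBS array 3 alone or with the GAPDH covariate, and 1 to 3 with a culture left out (2 without HD culture 4 or RA/Fsk culture 1, 3 without RA/Fsk culture 3). In HD against LD, the 1 higher became 0 with median centring, quantile normalization, no intensity trend or either FBS array 3 or 3r alone, 2 with each array as a sample and 0 to 1 with a culture left out (0 without HD culture 2 or 4 or any LD culture), and the 0 lower became 1 without the trend, 3 with each array as a sample, 1 with the mean of all probe sets of a gene and 0 to 1 with a culture left out (1 without FBS culture 2 or RA/Fsk culture 1). The cause was not tested.

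In RA/Fsk against LD, the replicate block over all 4 groups changed the calls of Slc25a23, Slc25a17 and Slc6a15, as given in the results. It changed no other carrier's call in that comparison. For the groups whose numbers are not shown to pair, it gave 16 higher and 5 lower with FBS, and 1 higher and 11 lower in RA/Fsk against FBS. Dim probe sets limit what can be seen: the median SD between LD cultures was 0.48 for the 50 dim carriers and 0.30 for the others.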

Other observations

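The anion exchanger Slc4a2, which swaps chloride for bicarbonate, has 2 probe sets that gave different sizes of change. The brighter one, used above by the rule, gave 332, 141 and 181 in LD and 333, 300, 332 and 291 in FBS cultures, a difference of 0.61 ± 0.30 (adjusted p = 0.17). The other gave 24.1, 13.8 and 20.5 in LD and 468, 466, 411 and 351 in FBS cultures, a rise of 4.15 ± 0.60 (adjusted p = 5.79e-05). In the HD cultures it gave 13.7, 149 and 38 and in the RA/Fsk cultures 22.8, 138, 96.2 and 26.2, all below the FBS cultures. RA/Fsk was lower than FBS by 2.84 (adjusted p = 0.0015) on this probe set and differed by -0.82 (adjusted p = 0.0538) on the brighter one. The mean of both rose by 2.38 with FBS (adjusted p = 0.0001). This probe set was named after its values were seen, and which transcript each probe set reads was not examined.

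Second probe sets of Slc34a1 and Slc40a1, a kidney phosphate carrier and the iron exporter, also passed where the brighter ones did not. Slc34a1 fell by 1.43 with FBS (adjusted p = 0.00941) and by 1.58 with RA/Fsk (adjusted p = 0.0149), and Slc40a1 fell by 1.44 with FBS (adjusted p = 0.00678). In all, 5 of the carriers that passed with FBS have several probe sets, and each of the 5 had another probe set that passed in the same direction. Of the 2 such carriers that passed in RA/Fsk against FBS, 1 had, and for the other, Slc25a11, no other probe set passed.

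The vacuolar proton pump fills vesicles and lysosomes with the protons that vesicular carriers exchange. Of its 8 measured subunits 4 rose with FBS and 3 of these also with RA/Fsk, where 13.6% and 5.62% of all genes rose. Atp6v0c gave 1291, 1204 and 1632 in LD, 3002, 2866, 2709 and 3107 in FBS and 2218, 2831, 2908 and 2428 in RA/Fsk cultures, a difference of 1.09 for FBS (adjusted p = 7.87e-06) and 0.92 for RA/Fsk (adjusted p = 0.000248). Both treated groups were above all LD cultures. The summed intensity of the 8 subunits was 4052 to 4973 in LD, 7188 to 8244 in FBS and 5985 to 10032 in RA/Fsk cultures.

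Carriers that have other names include the mitochondrial uncoupling proteins and the organic anion carriers of the Slco group. Of 15 measured, 1 fell with FBS, where 12.3% of all genes did. The same 1 was higher in RA/Fsk than in FBS, where 8.95% of all genes were. Mtch2, a mitochondrial outer membrane member of the carrier family, gave 1996, 1917 and 1523 in LD, 1411, 1259, 1451 and 1168 in FBS and 1989, 1736, 1920 and 1717 in RA/Fsk cultures. It fell with FBS by 0.45 (adjusted p = 0.0302) and was higher in RA/Fsk than in FBS by 0.48 (adjusted p = 0.0183).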
